A study of Homo sapiens with 17 samples.

Results

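The 10 genes described here encode enzymes of glycolysis and of lactate formation: HK2, GPI, PFKL, ALDOA, TPI1, GAPDH, PGK1, ENO1, PKM and LDHA. They were chosen by name as housekeeping genes of high abundance, with earlier results of these data known. The phosphoglycerate mutase step between PGK1 and ENO1 has no member among them. Each gene was followed in its transcript with the highest summed count at a time point. All 10 enzymes had counts and passed the count minimum at both times, among 15660 genes with counts at 36 h and 17023 at 72 h, of which 9016 and 10896 were tested.

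Glycolysis splits glucose into pyruvate in the cytosol and yields ATP and NADH. HK2, GPI, PFKL, ALDOA and TPI1 act in its preparatory phase, which spends ATP. GAPDH, PGK1, ENO1 and PKM act in its payoff phase, and LDHA turns pyruvate into lactate, which restores the NAD+ that GAPDH needs. Proliferating cell lines such as HEK293 run this pathway at a high rate, and the mRNAs of GAPDH and PGK1 are widely used as reference genes.

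HEK293 is an established human embryonic kidney line. The cells were electroporated with a ribonucleoprotein of Cas9, which cuts DNA, or of dCas9, which binds without cutting, each with the same guide, sgIntron, to an intron of JAK2. The cells were harvested after 36 or 72 h for ribosome profiling, which sequences the mRNA fragments covered by ribosomes, and for mRNA sequencing. At 36 h there were 3 Cas9 and 2 dCas9 mRNA libraries and 2 footprint libraries of each nuclease, and at 72 h there were 2 libraries of each kind and nuclease, 17 in all. The labels give 300 pmol of Cas9 and 300 pmol of guide, a replicate was a pool of several electroporations, and the control cells therefore carried the protein and the guide too. The guide was made by synthesis at 36 h and by in vitro transcription at 72 h, so the harvest time and the guide cannot be told apart.

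The mRNA libraries held 25095505 to 33350952 counts at 36 h and 33040296 to 42825667 at 72 h. The footprint libraries were shallower and less even, with 689636 to 4868580 counts at 36 h and 3183555 to 8864461 at 72 h. Levels were scaled to CPM, the count of a gene relative to the total of its library. HEK293 markers were mixed. In mRNA VIM had 595 to 1018 CPM, CDH2 90.4 to 131, KRT18 50.8 to 62.1 and NEFL 49.3 to 65.1. KRT8 had only 3.9 to 8.3 CPM, LHX1 2.7 to 6.1 and NEFM 2.6 to 14.2, and PAX2 had at most 12 counts. The fibroblast marker COL1A1 had 3.5 to 10.0 CPM, so the low markers do not set the line apart. Of 8 markers of K562, another line of the study, HBZ and GATA1 had 0 counts in every mRNA library, and the summed level of all 8 was at most 1.77 CPM in mRNA and 7.56 CPM in footprint libraries. The guide cuts outside the counted coding part of JAK2, so its count did not check the labels.

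The 10 enzymes took a larger share of the footprints than of the mRNA. They held 1.83 to 1.92% of the tested footprint counts and 1.27 to 1.35% of the tested mRNA counts at 36 h. At 72 h the shares were 1.92 to 1.96% and 1.14 to 1.24%. The 95% Wilson interval of the shallowest library, dCas9 replicate e at 36 h, ran from 1.80 to 1.86%, which covers counting error only. The lowest mRNA share, 1.14%, was that of dCas9 replicate b at 72 h, while dCas9 replicate a had 1.24% and the Cas9 libraries 1.24% and 1.22%.

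Levels between genes were compared as CPM per kilobase of the counted coding part. The members spanned a wide range, with GAPDH and ENO1 at the top and the first kinase at the bottom in both library types and at both times. GAPDH (chr12:6534512-6538374, GENCODE 44 on hg38), which oxidizes glyceraldehyde phosphate, had 2775 to 3239 CPM per kb of mRNA at 72 h. ENO1 (chr1:8861000-8879190), the enolase that forms phosphoenolpyruvate, had 2714 to 3221, so the ranges of both overlapped. In footprints at 72 h ENO1 stood higher, at 4749 to 4960 CPM per kb against 4247 to 4399 for GAPDH, without overlap. At 36 h their footprint ranges overlapped.

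ALDOA (chr16:30064164-30070457), the aldolase that splits fructose bisphosphate, followed with 1150 to 1282 CPM per kb of mRNA at 72 h. TPI1 (chr12:6867119-6870948), which interconverts the triose phosphates that ALDOA makes, had 871 to 1146. The range of ALDOA lay above that of TPI1 in both library types and at both times. TPI1 was counted on a transcript of 229 codons at 36 h and of 267 codons at 72 h, so its levels are not compared between times. At 72 h a shorter TPI1 transcript of 230 codons had 32634 mRNA counts in Cas9 replicate a, against 33146 on the transcript used. The TPI1 level per kb therefore depends on the transcript, and its order below ALDOA in mRNA at 72 h holds only for the transcript used.

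PKM (chr15:72199029-72231819), the pyruvate kinase of the last ATP-yielding step, had 723 to 861 CPM per kb of mRNA at 72 h, and LDHA (chr11:18394560-18408425) had 551 to 749. These neighbours overlapped in mRNA at both times and in footprints at 36 h. In footprints at 72 h PKM stood at 1759 to 1837 CPM per kb and LDHA at 1339 to 1441. PGK1 (chrX:77910739-78129295), which makes ATP from bisphosphoglycerate, and GPI (chr19:34359480-34402413), which turns glucose phosphate into fructose phosphate, came next. Their mRNA ranges at 72 h were 335 to 392.3 and 260 to 337 CPM per kb.

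PFKL (chr21:44300051-44327376), the liver-type subunit of the phosphofructokinase that commits sugar to glycolysis, had only 39.2 to 47.6 CPM per kb of mRNA at 72 h. HK2 (chr2:74834127-74893359), a hexokinase that binds mitochondria, was lowest with 9.73 to 19.5. Both lay apart from the other 8 enzymes and from each other. Among all tested genes, the mean mRNA level of HK2 at 72 h was at the 34.7th percentile and that of PFKL at the 69.4th. The other 8 lay between the 95.6th and the 99.5th percentile, so HK2 was not a gene of high abundance in these cells.

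**Figure D1:**
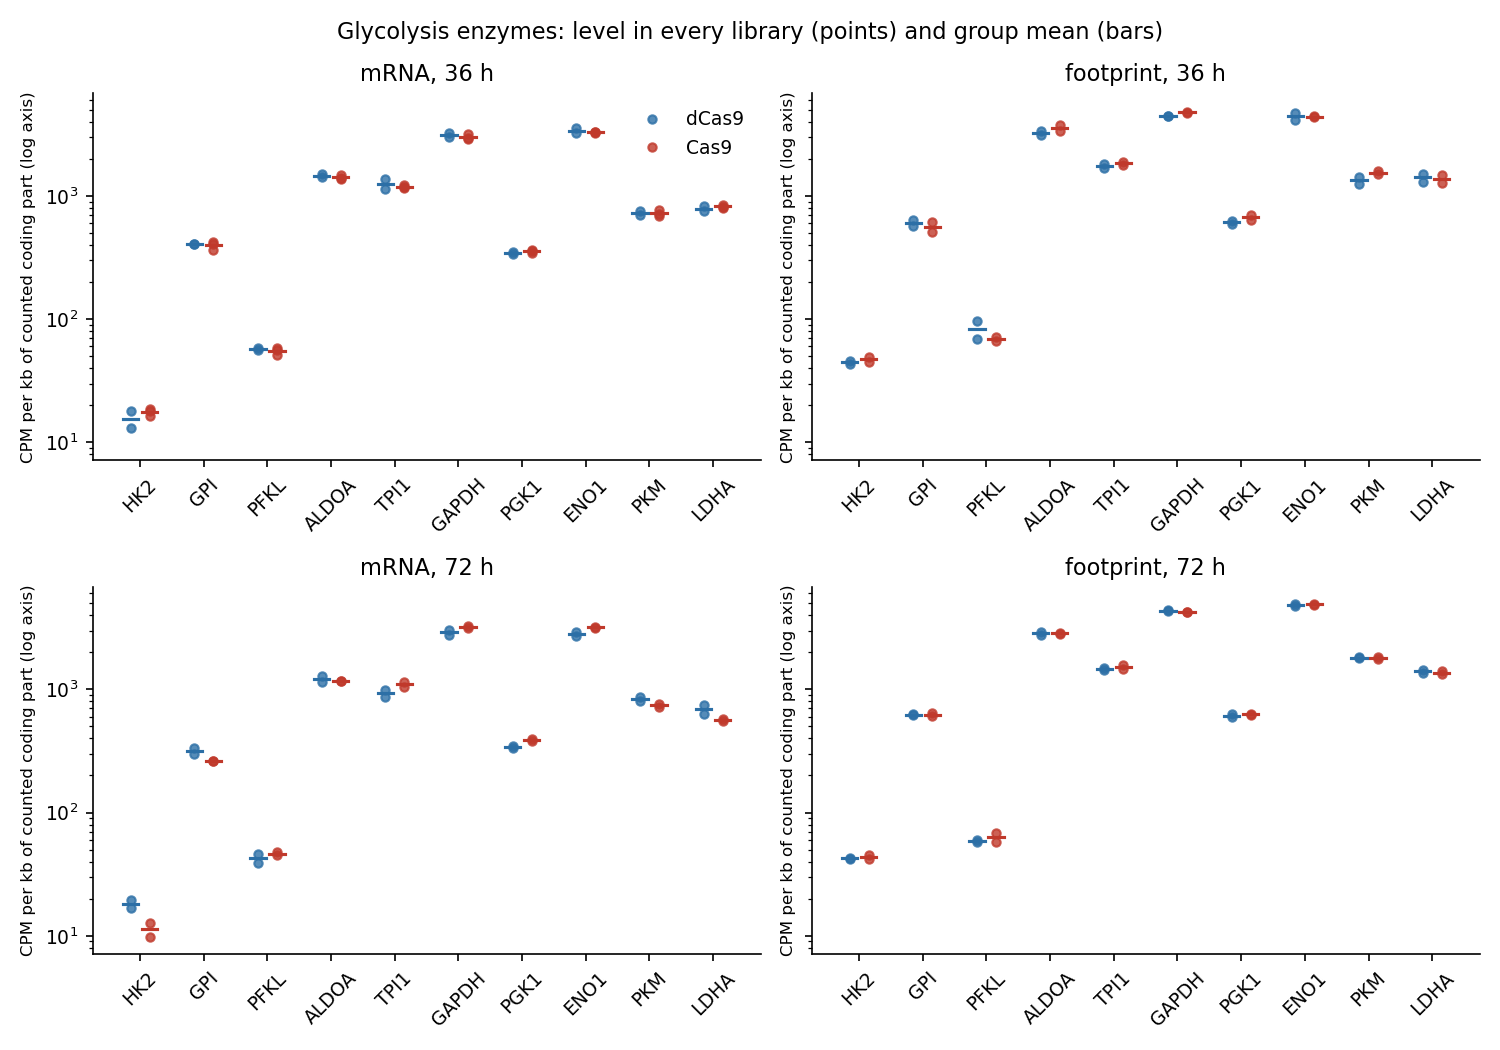
Level of each enzyme in every library, as CPM per kilobase of the counted coding part on a log axis, for mRNA (left) and footprints (right) at 36 h (top) and 72 h (bottom). Points are libraries, bars are group means, blue is dCas9 and red is Cas9. GAPDH and ENO1 stood highest, PFKL and HK2 lowest, and the HK2 mRNA points of both nucleases are apart at 72 h.

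The spread between replicates was below that of the median gene for most members. The pooled within-group SD of the log2 CPM was below the median of all tested genes for all 10 enzymes in footprints at both times, for 9 in mRNA at 36 h and for 7 in mRNA at 72 h. GAPDH footprints had an SD of 0.012 at 36 h and 0.013 at 72 h, against medians of 0.39 and 0.15 over all tested genes. Counting error is smaller for abundant genes, and these medians were not matched for abundance. Each footprint group held 2 libraries, so an SD this low is itself uncertain. HK2, the least abundant member, had the widest mRNA spread of the 10 at both times, with an SD of 0.20 at 36 h and 0.22 at 72 h. PFKL and LDHA mRNA at 72 h also exceeded the all-gene median of 0.12, with 0.13 each.

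GAPDH has 65 pseudogenes named after it in GENCODE 44, while the other 9 enzymes have 0 to 6. How reads that fit such copies were assigned is not given in the sources used here, so the GAPDH counts carry an uncertainty that the replicate spread does not show. The same holds for reads that fit related genes, such as the other genes of the pathway counted below.

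PKM was counted on different transcripts at the times. The pyruvate kinase gene has a pair of mutually exclusive exons, and the isoform with the M2 exon is the main form of proliferating cells, whereas the M1 exon marks muscle and brain. At 36 h the PKM transcripts counted carried the M1 exon. At 72 h both kinds were counted, and the M2 transcript had the higher count. PKM levels are therefore not compared between times. The exons are shown because they separate the coding sequence of these transcripts. Both have 167 bases, as exon 9 of their transcript, and lie at chr15:72203022-72203188 (M1) and chr15:72202454-72202620 (M2) on the minus strand of hg38. Capitals mark the 62 positions at which they differ when read side by side.
M1 exon: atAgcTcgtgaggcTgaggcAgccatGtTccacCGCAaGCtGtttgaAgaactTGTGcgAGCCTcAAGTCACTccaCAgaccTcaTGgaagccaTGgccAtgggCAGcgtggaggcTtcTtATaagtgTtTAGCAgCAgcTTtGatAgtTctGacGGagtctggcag
M2 exon: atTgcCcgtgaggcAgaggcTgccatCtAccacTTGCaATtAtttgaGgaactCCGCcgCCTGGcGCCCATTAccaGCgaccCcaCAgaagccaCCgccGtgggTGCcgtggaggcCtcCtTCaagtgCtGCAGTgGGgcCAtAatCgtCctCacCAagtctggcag
A read that fits several transcripts was counted on each, so the difference between their counts comes from these exons.

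At 72 h the M2 transcript had 40089 and 40489 counts in the Cas9 mRNA libraries, and the M1 transcript 36187 and 36331. In the dCas9 mRNA libraries the M2 transcript had 48043 and 54720 counts and the M1 transcript 42466 and 48924. The excess was 9.73 and 10.3% of the M2 count in the Cas9 libraries and 11.6 and 10.6% in the dCas9 libraries. In footprints it was 10.98 and 10.3% with Cas9 and 10.1 and 11.3% with dCas9. The exon is 10.9% of the counted length, so the excess of M2 over M1 reads was near the whole share that this exon could contribute. No group stood apart in footprints. With the M1 transcript in place of M2 at 72 h, an alternative chosen after seeing the data, PKM remained uncalled in all comparisons.

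The ratio of footprint CPM to mRNA CPM of a gene describes how densely its mRNA was covered by ribosomes. It was set against the median ratio of all tested genes in the same pair of libraries. Per the study's methods, lysates were divided between the assays, and at 36 h a footprint library was set against the mRNA library of the same letter. The deviations of such libraries from their group means correlated by at most 0.065, so the data do not show this pairing. At 72 h the letters differ between the library types, so each footprint library was set against each mRNA library of its group.

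All 10 enzymes lay above the median gene in each of these pairs, from 1.21 times the median for PFKL at 36 h to 4.92 times for HK2 at 72 h. HK2 had the highest ratio at 36 h, with 2.47 to 2.88 times the median in the Cas9 pairs and 2.48 to 3.68 in the dCas9 pairs, though the Cas9 range overlapped that of ALDOA. ALDOA had 2.49 to 2.62 times the median with Cas9 and 2.21 to 2.34 with dCas9 at 36 h. PFKL, ENO1 and GPI had low ratios at 36 h, with 1.21 to 1.73, 1.31 to 1.39 and 1.25 to 1.62 times the median, and their ranges overlapped. At 72 h HK2 had 2.32 to 2.57 times the median with dCas9 and 3.51 to 4.92 with Cas9, without overlap. GPI also had separate ranges at 72 h, with 1.85 to 2.24 in dCas9 and 2.45 to 2.60 in Cas9 pairs, and so had LDHA, with 1.95 to 2.32 and 2.49 to 2.69. The 72 h pairs share libraries and are not replicates. How many of all genes had separate ratio ranges was not counted. At 72 h every Cas9 library lay on 1 side of every dCas9 library for 49.5% of tested genes in mRNA and 31.8% in footprints. The ratios use the same mRNA libraries as the mRNA comparison below and are no separate evidence.

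**Figure D2:**
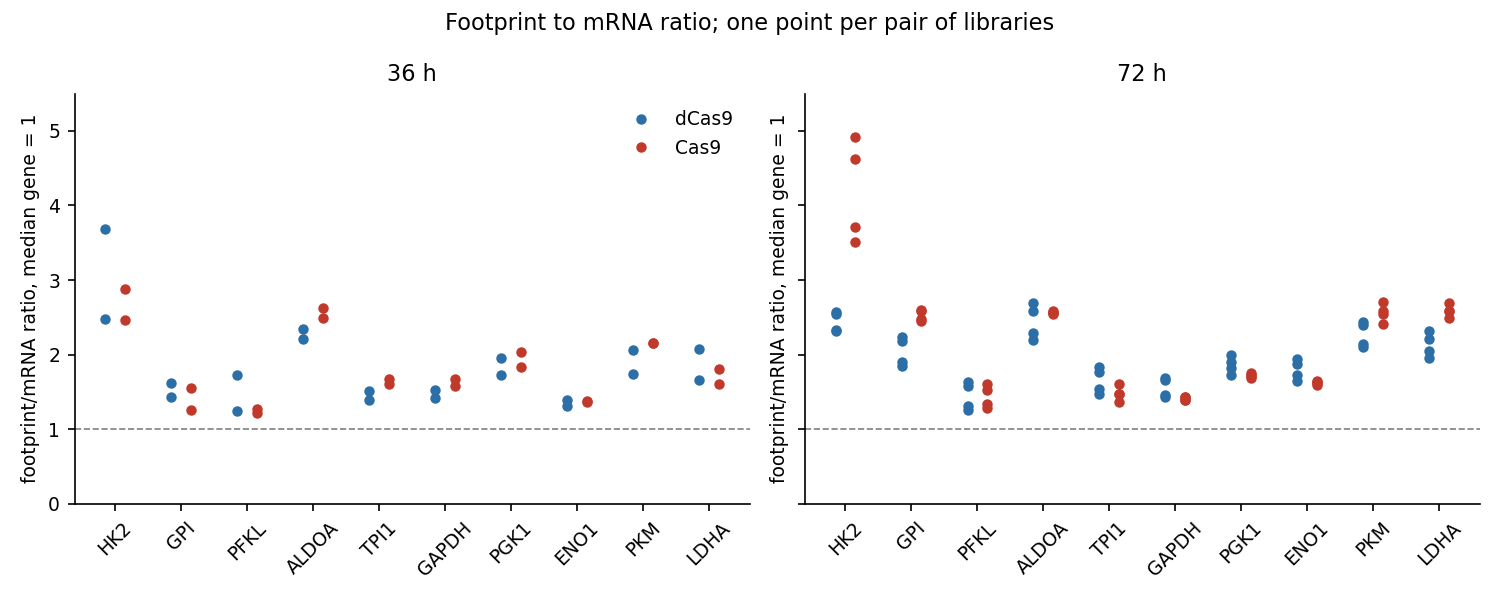
Footprint CPM over mRNA CPM of each enzyme, divided by the median ratio of all tested genes, at 36 h (left, 1 point per pair of libraries with the same letter) and 72 h (right, 1 point per pair of a footprint and an mRNA library of the group). Blue is dCas9, red is Cas9, and the dashed line is the median gene. All points lie above the line, and the red HK2 points at 72 h lie at 3.51 to 4.92.

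The main comparison asked whether the break changed the mRNA or the footprints of these genes. Cas9 was set against dCas9 with edgeR's quasi-likelihood test and Benjamini-Hochberg adjustment over all tested genes, and a gene was called at an adjusted p under 0.1. Changes are log2 fold changes of Cas9 over dCas9 with their standard error (SE).

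In mRNA at 72 h, 3 of the 10 enzymes fell and none rose, while 613 of all 10896 tested genes were called, which is 5.63%. Called and lower with Cas9 were 5.2% of all tested genes. The 3 were HK2, GPI and LDHA. The median change of the 10 enzymes was 0.03, against 0.02 over all tested genes, since the others were spread around 0.

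HK2 mRNA was 26.2 and 34.4 CPM in the Cas9 libraries and 45.2 and 52.6 CPM in the dCas9 libraries. Both Cas9 values lay below both dCas9 values. In bulk libraries such as these, fewer cells with an mRNA and less of it per cell cannot be told apart. The fitted change was -0.69 (SE 0.13, adjusted p = 0.0088 by edgeR's quasi-likelihood test).
GPI mRNA was 422 and 421 CPM with Cas9 and 544 and 487 CPM with dCas9. The groups did not overlap, and the change was -0.29 (SE 0.085, adjusted p = 0.074 by edgeR). LDHA mRNA was 517 and 535 CPM with Cas9 and 589 and 704 CPM with dCas9. These groups also did not overlap, with a change of -0.30 (SE 0.091, adjusted p = 0.094 by edgeR).

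Another 4 enzymes had a higher value in both Cas9 libraries than in both dCas9 libraries without passing the test. TPI1 mRNA was 918 and 837 CPM with Cas9 and 791 and 697 CPM with dCas9, a change of 0.24 (SE 0.089, adjusted p = 0.18 by edgeR). ENO1 was 4011 and 3924 CPM with Cas9 and 3624 and 3378 CPM with dCas9, a change of 0.18. PGK1, at 468 and 455 against 415 and 399.8 CPM, also had 0.18, and GAPDH, at 3071 and 2959 against 2889 and 2631 CPM, had 0.13. The adjusted p of ENO1, PGK1 and GAPDH by edgeR were 0.22, 0.28 and 0.40. These values moved with single libraries: with 1 left out, TPI1 ran from 0.093 to 0.34, ENO1 from 0.075 to 0.24, PGK1 from 0.098 to 0.22 and GAPDH from 0.0055 to 0.21. These enzymes act between the triose phosphates and phosphoenolpyruvate, and a link of the changes to that place in the pathway was not tested.

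PKM mRNA was 1110.0 and 1176 CPM with Cas9 and 1323 and 1227 CPM with dCas9, lower in both Cas9 libraries, with a change of -0.16 (SE 0.078, adjusted p = 0.31 by edgeR). PFKL, at 109 and 103 CPM with Cas9 and 106 and 89.4 with dCas9, and ALDOA, at 1219.5 and 1206 against 1327 and 1191, had overlapping groups. In all, 8 of the 10 enzymes had groups that did not overlap, where 49.5% of all tested genes did at this time.

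**Figure D3:**
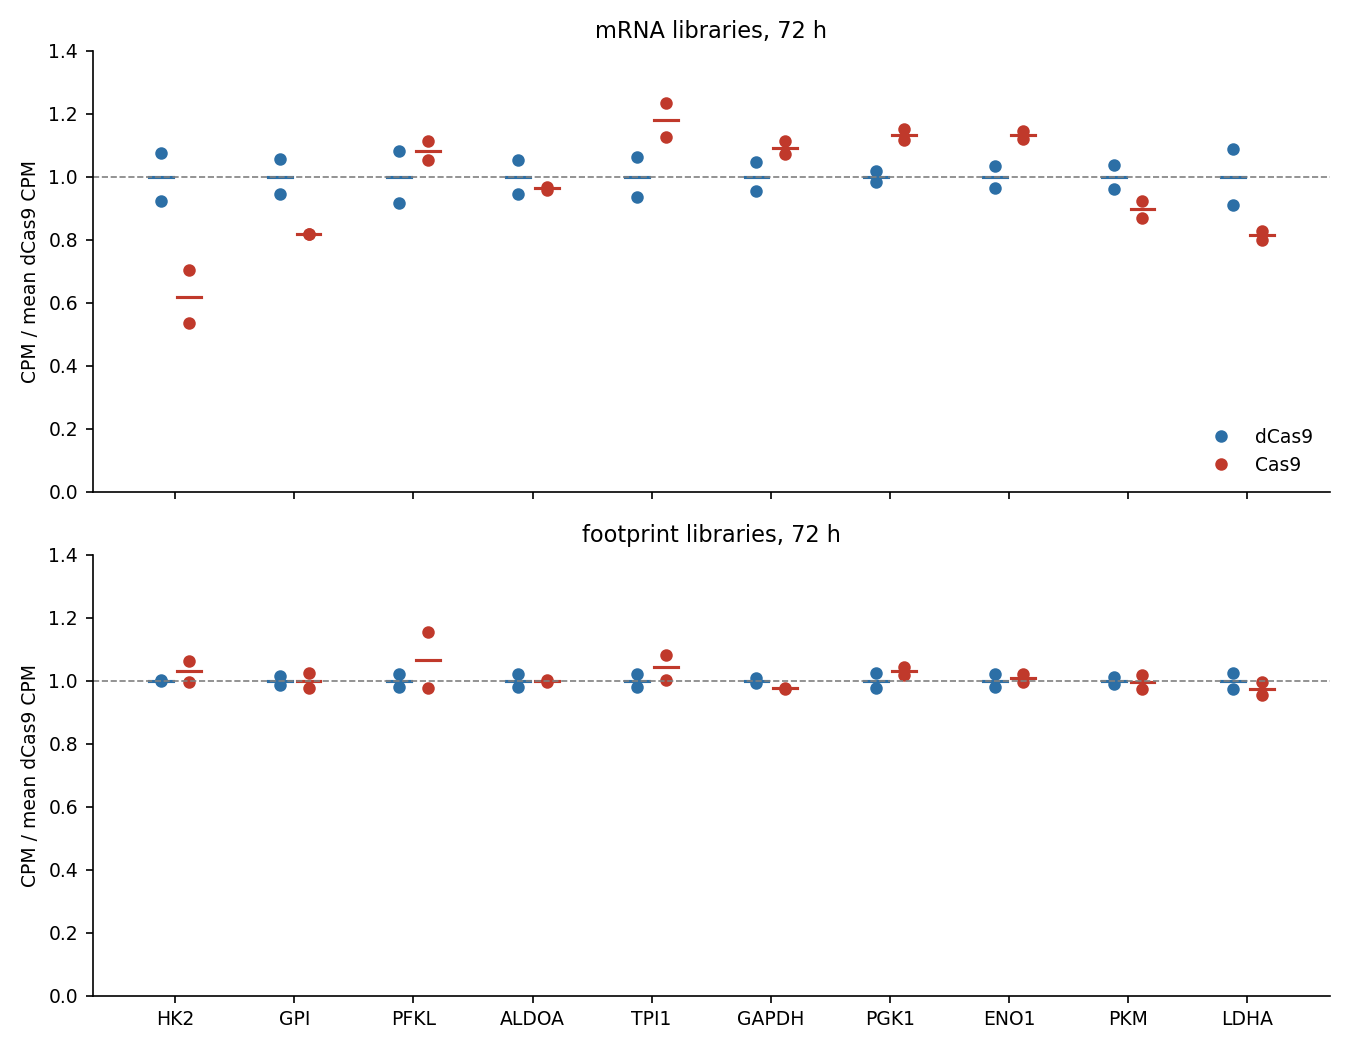
CPM of each enzyme in every 72 h library, divided by the mean of the dCas9 libraries of the same type, for mRNA (top) and footprints (bottom). Points are libraries and bars are group means, blue for dCas9 and red for Cas9. In mRNA the Cas9 points of HK2, GPI, PKM and LDHA lie below the dCas9 points and those of TPI1, GAPDH, PGK1 and ENO1 above, while the footprint points lie near 1.

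The number of enzymes called in mRNA at 72 h depended on single libraries, and so did the number over all genes, as given in the closing section. Without Cas9 replicate a none was called, and HK2 had a change of -0.52 with an adjusted p of 0.18. Without Cas9 replicate b only HK2 was called. Each of these fits leaves 1 library in a group, so such counts of calls are no result about the enzymes. Without dCas9 replicate a the changes were -0.78 for HK2, -0.20 for GPI, -0.41 for LDHA, 0.34 for TPI1 and 0.24 for ENO1. Without dCas9 replicate b they were -0.63 for HK2, -0.42 for GPI, -0.22 for LDHA and -0.27 for PKM. The direction of HK2, GPI and LDHA was the same in all of these. In the mRNA libraries fitted alone, and in sums over all transcripts of a gene, HK2 was the only enzyme called. Fitted alone, the SEs were 0.16 for HK2, 0.11 for GPI and 0.12 for LDHA. The adjusted p by edgeR were then 0.071, 0.28 and 0.29. With edgeR's own filter on low counts HK2 and GPI were called, and LDHA had an adjusted p of 0.100058.

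The calls also differed when offsets for coding GC content were used, and the cause of that difference was not tested. With offsets that removed each library's trend with coding GC content, 3 enzymes were lower (HK2, GPI and LDHA) and 5 higher (PFKL, TPI1, GAPDH, PGK1 and ENO1) in mRNA at 72 h, among 1151 lower and 838 higher of all genes. The split without these offsets was 567 lower and 46 higher. The coding GC content was 56.4% for HK2, 56.8% for GPI and 45.1% for LDHA, and from 50.3% for PGK1 to 62.3% for PFKL among the 5, against a median of 51.7% over the tested genes. With these offsets the change was -0.17 for GPI, -0.35 for LDHA and -0.59 for HK2. The HK2 change lay between -0.93 and -0.52 over all alternatives.

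The promoters of HK2 and LDHA are shown as those of called enzymes whose window lies before the annotated start of the gene, but for the last 3 bases of LDHA. Glycolysis genes are known targets of the hypoxia-inducible factor and of MYC, whose binding sites can hold the letters ACGTG and CACGTG. The sequences are from RefSeq (GRCh38.p14), plus strand, and cover the 250 bases before a transcript start. They lie at chr2:74833877-74834126 for HK2 and chr11:18394313-18394562 for LDHA. Capitals mark ACGTG on either strand, so that CACGT is a match on the other strand and CACGTG holds overlapping matches on both.
HK2 promoter: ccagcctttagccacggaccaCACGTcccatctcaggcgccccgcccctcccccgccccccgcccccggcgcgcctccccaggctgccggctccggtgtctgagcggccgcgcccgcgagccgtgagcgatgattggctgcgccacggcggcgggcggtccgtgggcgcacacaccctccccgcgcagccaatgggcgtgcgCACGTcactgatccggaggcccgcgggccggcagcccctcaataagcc
LDHA promoter: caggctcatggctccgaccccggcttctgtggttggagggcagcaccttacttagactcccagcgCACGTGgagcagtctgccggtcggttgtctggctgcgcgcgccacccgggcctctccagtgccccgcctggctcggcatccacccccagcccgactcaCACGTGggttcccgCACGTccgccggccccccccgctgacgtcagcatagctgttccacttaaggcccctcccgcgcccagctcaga
ACGTG was found at 2 separate places in the HK2 window shown and at 3 in that of LDHA. Another window of HK2 held 2 matches, and another of LDHA held 0. ACGTG was present in a window of 7 of the 10 enzymes, and of 21.7% of all genes with a window. Genes differ in their number of windows. Counted per window, 10 of 15 windows of the enzymes had a match, and 18.5% of the windows of all genes. GPI, ALDOA, TPI1, GAPDH and PGK1 also had ACGTG, and PFKL, ENO1 and PKM had no match to these letters. Other forms, such as GCGTG, were not searched, and the windows of PFKL and ENO1 hold that form. Enzymes that fell and enzymes that did not were thus both among those with a match.

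In footprints at 72 h none of the 10 enzymes was called, and neither was any other gene by edgeR (0.0%), with 396 genes at an unadjusted p under 0.05 and 0 genes called by DESeq2. None of the 10 had an unadjusted p under 0.05. All 10 changes lay between -0.04 and 0.10 with SEs of 0.073 to 0.14, and their median was 0.01.

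HK2 footprints were 122 and 114 CPM with Cas9 and 114 and 115 CPM with dCas9, so the groups overlapped, with a change of 0.04 (SE 0.14). GPI footprints were 985 and 1032 CPM against 995 and 1023, and LDHA footprints 1315 and 1258 CPM against 1353 and 1286. The enzymes whose mRNA fell thus had footprint levels that overlapped between the nucleases. GAPDH was the only member with separate groups, at 4041 and 4026 CPM with Cas9 and 4098 and 4171 CPM with dCas9, a change of -0.04 (SE 0.075), where 31.8% of all tested genes had separate groups. PFKL had the largest change, 0.10 (SE 0.12), with 132 and 155 CPM against 132 and 138. For ENO1, PKM and ALDOA, the most abundant enzymes beside GAPDH, the changes were 0.01, -0.01 and 0.00.

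The change in footprints minus that in mRNA, which is the change in translational efficiency, was called for none of the 10 enzymes at 72 h, and for 78 of all tested genes (0.716%). HK2 came closest, with 0.73 (SE 0.19, adjusted p = 0.14 by edgeR). It passed with DESeq2 (0.75, adjusted p = 0.021), for which the share of all genes called is not given here. It was above 0 in 16 of 16 combinations of libraries, but so were GPI, PKM and LDHA. GAPDH, PGK1 and ENO1 were below 0 in all 16. These combinations share libraries, and the share of all genes with such a count was not taken. HK2 was also called without Cas9 mRNA replicate b, without dCas9 mRNA replicate a and without dCas9 mRNA replicate b, the last with GPI. It was not called without Cas9 mRNA replicate a (0.56, adjusted p = 0.69 by edgeR) or without any 1 of the footprint libraries, where its adjusted p ran from 0.28 to 0.55. GPI had 0.29 (SE 0.12, adjusted p = 0.38 by edgeR) and LDHA 0.26 (SE 0.13, adjusted p = 0.48 by edgeR). TPI1, GAPDH, PGK1 and ENO1 had values from -0.18 to -0.14, none of which passed. Since these contrasts share the mRNA libraries with the mRNA comparison, they are no separate evidence.

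**Figure D4:**
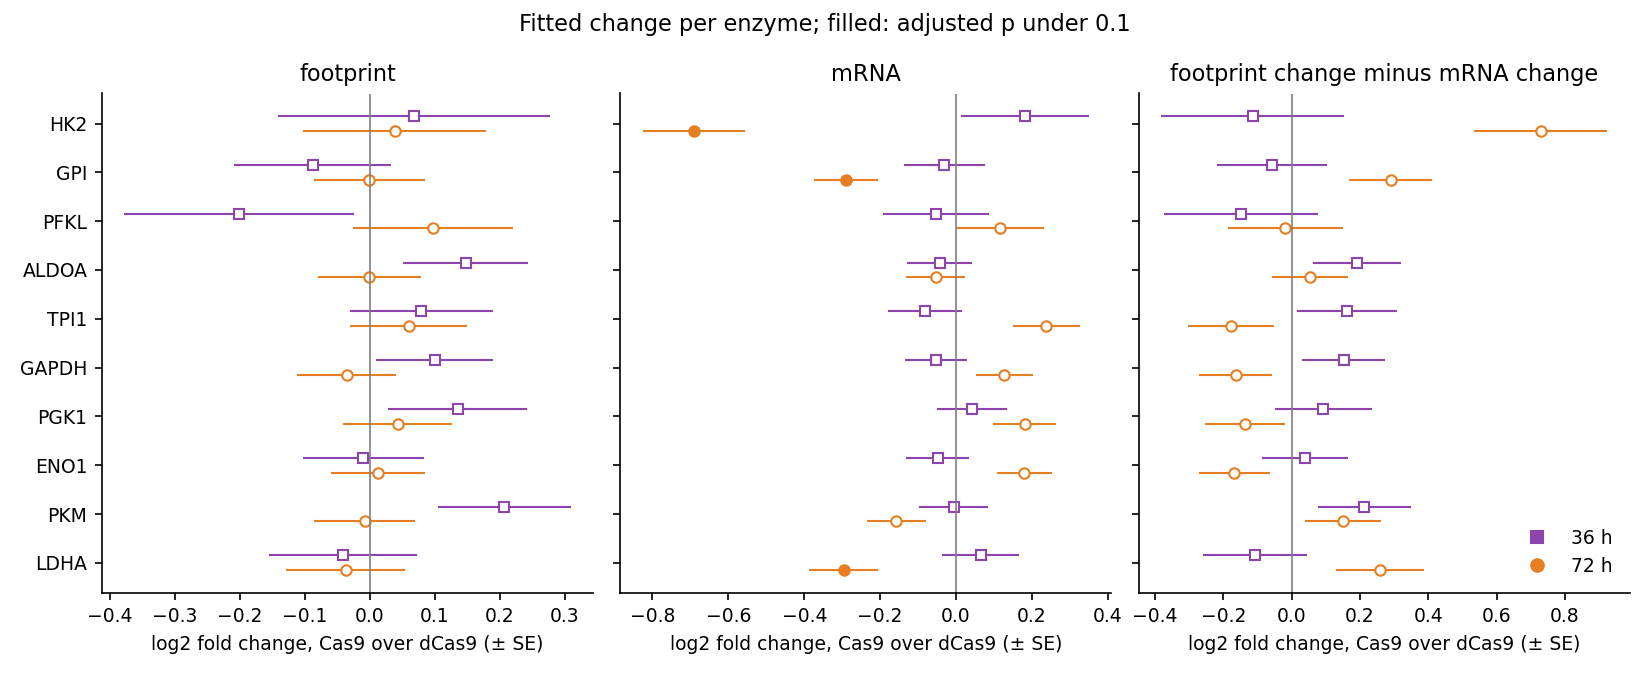
Fitted log2 fold change of Cas9 over dCas9 per enzyme, with SE bars, in footprints (left), mRNA (middle) and footprints minus mRNA (right), at 36 h (squares) and 72 h (circles). The x axes differ between panels. Filled symbols have an adjusted p under 0.1 by edgeR, and these are HK2, GPI and LDHA mRNA at 72 h.

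At 36 h none of the 10 enzymes was called in mRNA, footprints or translational efficiency, and neither was any gene by edgeR (0.0% in each). Of all 9016 tested genes, 26 in mRNA, 862 in footprints and 568 in translational efficiency had an unadjusted p under 0.05, and DESeq2 called 0, 46 and 1. No enzyme reached an unadjusted p under 0.05 in any of these.

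HK2 mRNA at 36 h was 48.1, 43.98 and 49.8 CPM with Cas9 and 48.2 and 35.2 CPM with dCas9. The groups overlapped, with a change of 0.18 (SE 0.17), opposite in sign to 72 h. GPI mRNA was 677, 589 and 660.1 CPM against 654 and 658, and LDHA 766, 750 and 791 CPM against 700 and 769. All 10 enzymes overlapped in mRNA at 36 h, where 16.9% of all tested genes did not. Their changes ran from -0.08 for TPI1 to 0.18 for HK2, with a median of -0.04 against 0.00 over all tested genes.

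Footprints at 36 h were the shallowest measure, with 77 to 552 counts on HK2 and 3636 to 24123 on ENO1 per library. The largest positive change was that of PKM, 0.21 (SE 0.10, adjusted p = 0.55 by edgeR). PKM footprints were 2433 and 2300 CPM with Cas9 and 2166 and 1922 CPM with dCas9, without overlap. ALDOA, at 3877 and 3485 against 3200 and 3447 CPM, GAPDH, at 4544 and 4480 against 4229 and 4189, and PGK1, at 828 and 765 against 702 and 750, also lay higher in both Cas9 libraries. Separate groups were seen in 30.4% of all tested genes, against 4 of the 10 enzymes. PFKL had the lowest change, -0.20 (SE 0.18), with 151 and 164 CPM against 158 and 219, the last value from the shallowest library. Translational efficiency changes at 36 h ran from -0.15 for PFKL to 0.21 for PKM, with an adjusted p of at least 0.85 by edgeR.

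The difference between the times in the effect of Cas9 was tested over all 17 libraries and 8970 genes. No enzyme was called. Of all genes, 0.524% were called in mRNA, 0.0223% in footprints and 0.0111% in translational efficiency. HK2 mRNA had the largest difference of the 10, -0.86 for 72 h minus 36 h (SE 0.22, adjusted p = 0.13 by edgeR). Taken from the separate fits of the times, the HK2 difference was -0.87 with an adjusted p of 0.0073. The shares above belong to the test over all 17 libraries, and the share of all genes called from the separate fits is not given here. LDHA mRNA had -0.35 and TPI1 mRNA 0.33, with adjusted p of 0.52 and 0.54 by edgeR.

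Reference genes are used to scale other mRNAs, and GAPDH was such a gene in the study's PCR assays. Set over GAPDH within each mRNA library at 72 h, HK2 was lower with Cas9 by a mean of -0.83 on the log2 scale over the 4 pairs of libraries, GPI by -0.42, LDHA by -0.42, PKM by -0.29 and ALDOA by -0.18, each below 0 in 4 of 4 pairs. The pairs share libraries and are not independent, and they ran from -1.23 to -0.43 for HK2, -0.46 to -0.38 for GPI and -0.67 to -0.17 for LDHA. TPI1, PGK1 and ENO1 were above 0 in 4 of 4 pairs, with means of 0.11, 0.05 and 0.05, so they stayed within a small distance of GAPDH. At 36 h the means over 6 pairs ran from -0.02 for TPI1 to 0.25 for HK2. GAPDH itself was higher in both 72 h Cas9 mRNA libraries, as given above.

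Lists of related genes were counted in the same fits, and their values are given with all libraries in. Their counts in mRNA at 72 h are to be read against the 5.63% of all tested genes that were called and the 5.2% that were called lower, and lists with 1 call lie near that share. None of their genes was called at 36 h in any measure, or at 72 h in footprints or translational efficiency. Reference genes in common use beside GAPDH and PGK1 were among those called in mRNA at 72 h, in both directions. HPRT1, of purine salvage, fell by 0.66 (SE 0.19, adjusted p = 0.072 by edgeR), from 30.3 and 51.9 CPM in dCas9 to 22.7 and 29.5 CPM in Cas9 libraries, and PPIA, cyclophilin A, rose by 0.27 (SE 0.079, adjusted p = 0.071 by edgeR), from 1010.4 and 1046 to 1195 and 1290 CPM. The footprint changes of HPRT1 and PPIA were 0.11 and 0.03 and were not called.

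Of 21 other genes for enzymes of the pathway, phosphoglycerate mutases included, 11 were tested at 72 h and 1 fell in mRNA, with a median change of 0.11. Reads that fit more than 1 of these related genes add an uncertainty to this median. The gene that fell was HK1, the hexokinase of most tissues, with -0.37 (SE 0.11, adjusted p = 0.084 by edgeR). It had 128 and 132 CPM with Cas9 and 166 and 170 CPM with dCas9. The HK1 footprint change was -0.06. PGAM1, the mutase of most tissues, had 0.12 in mRNA (SE 0.087, adjusted p = 0.51 by edgeR) and was named after its values were seen. Of 7 genes of the pentose phosphate pathway, which branches off at the product of hexokinase, 1 of 7 tested fell. It was PGD, which makes NADPH, with -0.43 (SE 0.093, adjusted p = 0.016 by edgeR), and its footprint change was -0.10.

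Of 12 targets of the hypoxia-inducible factor outside glycolysis, 10 were tested at 72 h and only NDRG1 fell, with -0.40 (adjusted p = 0.042 by edgeR), while the median change was 0.05. None was called of 3 tested genes that set the level of a regulatory fructose bisphosphate, which is not the form that ALDOA splits. Nor was any of 7 tested genes of glucose and lactate transport and 14 of pyruvate entry into mitochondria. The median changes of these lists were -0.02, 0.09 and 0.13. Examples were PFKFB3 and TIGAR, which raise and lower the regulatory form, with changes of -0.09 and -0.02. SLC16A1 and BSG, a lactate transporter and its chaperone, had 0.13 and -0.02. PDHA1 and PDHB, subunits of pyruvate dehydrogenase, had 0.10 and 0.15. The HEK293 marker NEFM also fell in mRNA at 72 h, by 0.89 (adjusted p = 0.033 by edgeR), and its part in these results was not tested.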

How the data were processed

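The deposited values were counts of reads per transcript, made by the authors from single-end reads of ribosome footprints (RNase I digestion) and of rRNA-depleted total RNA, 1 library per file, with the number of codons over which reads were counted. The reads were aligned with HISAT2 (version 2.1.0 in the submitters' processing notes) at 36 h and, per the paper's methods, with TopHat at 72 h, to different GENCODE releases, and a read was counted on each transcript that it fits. Time is therefore confounded with guide synthesis, aligner and annotation.

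Transcripts were matched to GENCODE 44: 25338 of 26679 at 36 h (96.26% of counts) and 94799 of 98334 at 72 h (95.78%). Each gene was represented by its transcript with the highest summed count per time. Genes with a mean of at least 20 counts in footprint and in mRNA libraries were tested with edgeR 4.0.16 (quasi-likelihood, TMM factors) in 1 fit per time with a mean for each nuclease and library type. Calls were made at a Benjamini-Hochberg adjusted p under 0.1 over all tested genes. CPM were scaled to the total over tested genes times the TMM factor, and single pairs used a prior count of 2. Alternatives used DESeq2 1.42.0, other filters, GC-dependent offsets (lowess span 0.3), sums over transcripts, a replicate block and each library left out. The fitting script was tested on simulated data. Groups came from the labels, which give no batch and, for the Cas9 footprints at 36 h, replicates a and c. Replicate b was not analysed here. P-values of the main fits rest on 1 spread per gene over the footprint and mRNA libraries of a time. They do not measure the spread between the mRNA libraries alone. At 72 h the within-group SD in mRNA and in footprints was 0.22 and 0.047 for HK2, 0.080 and 0.039 for GPI, and 0.13 and 0.049 for LDHA. Each library came from a pool of electroporations. Wilson intervals cover counting error only.

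The enzymes and lists were chosen with earlier results of these data known. From each further list, at most 3 called genes were named or, where none was called, the 2 with the highest mean mRNA CPM. Some genes of these lists are not reported here.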

Additional observations from a re-analysis of the deposited data

Results flagged for a closer look

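GAPDH footprints lay on opposite sides at the times. At 36 h both Cas9 libraries were above both dCas9 libraries, with a change of 0.10, and at 72 h both were below, with a change of -0.04. The difference of 72 h minus 36 h was -0.14 (SE 0.11, adjusted p = 0.78 by edgeR), which did not pass the test. Time, guide synthesis, aligner and annotation cannot be told apart.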

How the results depend on the processing

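Of 60 changes (10 enzymes in 3 measures at 36 and 72 h), 22 kept their direction and their side of the threshold in each alternative, and 26, none of them called, changed direction in at least 1. The number of enzymes called in mRNA at 72 h was 3. It was 1 with each library type fitted alone and in sums over all transcripts, 2 with edgeR's own filter on low counts (without LDHA), 8 with GC-dependent offsets, and 0 to 4 with 1 library left out. In translational efficiency at 72 h it was 0, but 1 (HK2) with DESeq2 size factors, DESeq2, no count minimum or a crossed replicate block, 3 with GC-dependent offsets, and 0 to 2 with 1 library left out. For mRNA in the difference between times it was 0, and 1 (HK2) from the separate fits. How many of all genes these alternatives called in translational efficiency at 72 h, or the separate fits in the difference, is not given here. The cause of these shifts was not tested. Over all genes, 613 mRNA calls at 72 h became 110 without Cas9 replicate a and 2472 without dCas9 replicate b. Replicate letters were not shown to pair the samples: deviations correlated by 0.065, 0.017 and 0.011 in the 36 h pairs of the same letter, 0.011 in footprints e at 72 h and -0.14 in mRNA a at 72 h. The replicate block gave 4 mRNA calls among the enzymes at 72 h, with TPI1 (0.24, adjusted p = 0.083 by edgeR) beside HK2, GPI and LDHA, 535 over all genes, and 0 in translational efficiency at both times. The crossed pairing, added after seeing the data, gave 3 and 1133. Footprint depth at 36 h limits HK2, with 77 to 552 counts.

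With 1 library left out, footprint changes at 36 h ran from -0.24 to 0.044 for GPI, -0.48 to 0.0021 for PFKL, -0.11 to 0.085 for ENO1 and -0.16 to 0.068 for LDHA. The mRNA changes at 36 h ran from -0.031 to 0.43 for HK2, -0.070 to 0.028 for GPI, -0.20 to 0.048 for TPI1, -0.12 to 0.011 for GAPDH, -0.12 to 0.020 for ENO1, -0.058 to 0.045 for PKM and -0.0010 to 0.13 for LDHA. Translational efficiency changes at 36 h ran from -0.36 to 0.087 for HK2, -0.21 to 0.075 for GPI, -0.43 to 0.055 for PFKL, -0.067 to 0.13 for ENO1 and -0.23 to 0.0025 for LDHA. Footprint changes at 72 h ran from -0.0056 to 0.087 for HK2, -0.036 to 0.033 for GPI, -0.034 to 0.21 for PFKL, -0.030 to 0.030 for ALDOA, -0.019 to 0.046 for ENO1 and -0.040 to 0.024 for PKM. At 72 h the mRNA change ran from -0.057 to 0.25 for PFKL and -0.19 to 0.039 for ALDOA, and that of translational efficiency from -0.15 to 0.16 for PFKL and -0.042 to 0.18 for ALDOA. GC-dependent offsets turned the direction of ENO1 (0.016) and LDHA (0.0073) footprints and GPI (0.00061) and PKM (0.018) mRNA at 36 h, and of ALDOA mRNA (0.060) and translational efficiency (-0.080) at 72 h. With only the Cas9 mRNA libraries that have a footprint library, GPI (0.028) and PKM (0.027) mRNA turned at 36 h. At 72 h GPI and ALDOA footprints turned with DESeq2 size factors (0.000040 and 0.00040), DESeq2 (0.00012 and 0.00040) and sums over transcripts (0.00077 and 0.0018), as did the PFKL translational efficiency with DESeq2 size factors (0.0047) and DESeq2 (0.0047).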
